A study of Bos taurus with 12 samples.

Results

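The CCN family is a group of 6 secreted proteins, and 5 of its genes, CCN1 to CCN5, could be followed among the 18087 genes with a probe set of their own on the bovine arrays. A member was any probe set annotated to a single CCN gene under its present name or its older one. These older names are CYR61 for CCN1, CTGF for CCN2, NOV for CCN3, WISP1 for CCN4, WISP2 for CCN5 and WISP3 for CCN6. CCN1 (probe set 12843892), CCN2 (12899445), CCN3 (12724433), CCN4 (12725851) and CCN5 (12716297) each had 1 probe set, so that no choice between probe sets was needed, and no probe set was annotated to CCN6, which is not analysed here.

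CCN proteins are matricellular: they are deposited in the extracellular matrix, where they alter what cells make of it, rather than holding the matrix together. They are built from cysteine-rich modules that resemble parts of the insulin-like growth factor binding proteins, von Willebrand factor and thrombospondin, followed by a C-terminal cystine-knot module that CCN5 lacks, and they bind integrins and heparan sulphate proteoglycans. CCN1 and CCN2 are well-known targets of the YAP and TAZ coactivators acting through TEAD factors, and of serum response factor, while CCN2 is also a classical TGF-β target, and CCN4 and CCN5 were first described as Wnt-1-induced genes. In mice CCN2 is needed for normal growth of cartilage, the tissue into which these cells are commonly directed with TGF-β3.

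Mesenchymal stem cells from the bone marrow of the femurs and tibiae of 3 juvenile cattle (under 6 months of age) were expanded through 1 passage at 21% oxygen in high-glucose medium with serum, and then cultured for a week in 1 of 4 conditions. The conditions were 21% oxygen without TGF-β3 (the untreated cells), 21% oxygen with TGF-β3 at 10 ng/mL, 2% oxygen without it and 2% oxygen with it. Each condition held 3 arrays, 1 per donor, and no genetic change was made. The signal is a log2 value from robust multi-array averaging (RMA), so a difference of 1 is 2-fold. Differences are given ± the standard error from limma, a linear model fitted to all 26773 probe sets, and a difference was called at a Benjamini-Hochberg adjusted p under 0.05 over all of them. Arrays with 1 donor number come from 1 animal, so a fit with the donor as a block is also given where it changes a call.

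Array medians lay between 6.59 and 6.66, and precision was limited by the 3 arrays per condition. Of 10 mesenchymal stromal markers, 8 lay above the median of every array, and VCAM1 and LEPR did not. Of 6 measured haematopoietic markers 1 did so (PTPRC and CD34 did not), as did 0 of 5 endothelial, 0 of 4 erythroid, 0 of 4 adipocyte, 1 of 4 osteoclast, 2 of 4 muscle and nerve and 3 of 3 chondrocyte markers. Some marker lists moved with TGF-β3. At 21% oxygen the mean signal of the stromal list was 10.24 to 10.33 without and 9.80 to 9.87 with TGF-β3, that of the adipocyte list was 7.05 to 7.59 and 5.39 to 6.42, that of the endothelial list was 5.47 to 5.56 and 5.83 to 5.99, and that of the muscle and nerve list was 7.89 to 8.06 and 8.37 to 8.84. At 2% oxygen the same 4 lists stood at 10.18 to 10.40 without and 9.87 to 9.93 with TGF-β3, at 7.57 to 7.87 and 5.93 to 6.64, at 5.54 to 5.65 and 5.88 to 6.04, and at 7.75 to 8.11 and 8.37 to 8.85. The stromal list fell across several members. At 21% oxygen 2 of 10 were called lower (PDGFRA at -0.84 ± 0.18, PDGFRB at -0.76 ± 0.13) and 5 with the donor block, while 2 had changes above 0. At 2% oxygen 1 was called lower (PDGFRB at -0.70 ± 0.13) and 4 with the block, while 1 was above 0. In the other lists just named, few genes carried most of the shift. In the endothelial list PECAM1 rose by 2.13 ± 0.25 at 21% and 2.11 ± 0.25 at 2%, while the other 4 members were not called and lay between -0.22 and 0.11. In the muscle and nerve list DES (2.20 ± 0.51 at 21%) and S100B (0.60 ± 0.12) rose and MYOD1 and MYOG did not pass, and in the adipocyte list FABP4 fell by 4.57 ± 0.52 and was the only member called. The osteoclast list also stood apart with TGF-β3. At 21% it was at 7.25 to 7.39 without and 7.17 to 7.19 with it, and at 2% at 7.23 to 7.30 and 7.04 to 7.17. No member was called in the fit without the donor. With the donor block CTSK was called lower at both tensions (-0.56 ± 0.16 at each, limma adjusted p = 0.00338 and 0.00322 with the block). The erythroid list stood apart at 21% (5.44 to 5.50 against 5.58 to 5.64), with no member called in either fit. The chondrocyte list stood apart at 2% (9.32 to 9.92 against 9.11 to 9.20). There 1 of 3 measured members was called lower, SOX9 (-0.54 ± 0.11). With the donor block 2 were, as ACAN (-1.77 ± 0.67) was added, while COL2A1 was above 0 and not called. The part of all these lists in the CCN results was not tested. In such bulk RNA, fewer cells of a type and less RNA per cell cannot be told apart.

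With TGF-β3, CCN1 and CCN4 rose at both oxygen tensions, CCN2 showed a smaller difference that was called in some fits, that with the donor as a block among them, and CCN3 and CCN5 had no common direction among the donors. At 21% oxygen 2 of 5 members were called, both higher, against 2.75% of all probe sets (1.28% higher), and 3 of 5 with the donor block, against 6.35%. At 2% oxygen 2 of 5 were called, again CCN1 and CCN4, against 3.05% (1.45% higher), and 3 of 5 with the block, against 6.98%. The treated and untreated arrays of CCN1, CCN2 and CCN4 did not overlap at either tension, as was the case for 20.7% of all probe sets at 21% and 19.5% at 2% oxygen. An unadjusted limma p under 0.05 was found for 3 of 5 members at each tension, against 14.9% and 15.7% of all probe sets. The median change of the 5 members was 0.37 at 21% and 0.39 at 2%, beside 0.01 for all probe sets in each case.

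**Figure D1:**
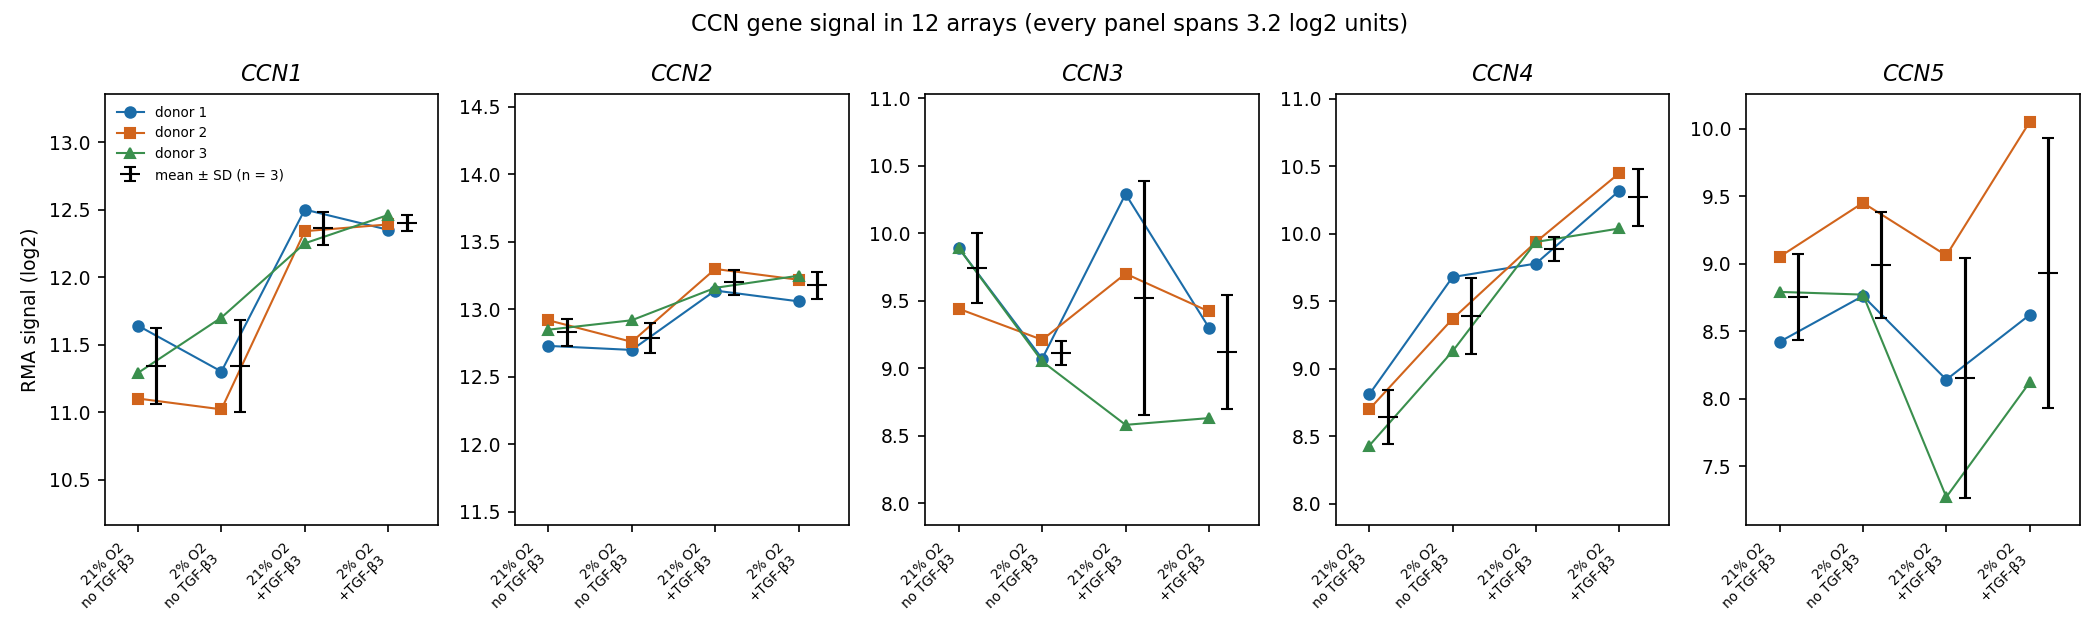
RMA signal (log2, vertical axis) of the 5 measured CCN genes in the 4 conditions (horizontal axis), with 1 line per donor and the mean ± SD of the 3 donors in black; every panel spans the same range of log2 units, and levels are not comparable between genes. CCN1 and CCN2 form a low pair and a high pair of conditions, CCN4 climbs through all 4 conditions, and the donors part from each other in CCN3 and CCN5.

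CCN1 encodes a secreted adhesion protein that is switched on early by growth factors and by mechanical load. Its signal in untreated cells at 21% oxygen was 11.64, 11.10 and 11.29 in donors 1, 2 and 3, and with TGF-β3 it was 12.50, 12.34 and 12.25. At 2% oxygen it was 11.30, 11.02 and 11.70 without and 12.35, 12.39 and 12.46 with TGF-β3. All 6 treated arrays thus lay above all 6 untreated ones, and the treated cells were the more alike: the SD was 0.28 and 0.34 in the conditions without TGF-β3, at 21% and 2% oxygen, and 0.12 and 0.06 in those with it.

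The rise of CCN1 was 1.02 ± 0.17 at 21% oxygen (2.03-fold, n = 3 per group, limma adjusted p = 0.0101) and 1.06 ± 0.17 at 2% (2.08-fold, adjusted p = 0.00732). Within donors 1, 2 and 3 it was 0.86, 1.24 and 0.96 at 21%, and 1.04, 1.37 and 0.76 at 2%. Donor 2, which had the lowest untreated signals, had the largest rise at both tensions. Dropping the untreated donor 2 array at 21% oxygen ended the call there (0.90, adjusted p = 0.0524). Dropping donor 1 (adjusted p = 0.12 and 0.122) or donor 2 (0.168 and 0.149) ended it at both tensions, also in the fit with the donor as a block (0.0545 and 0.0544 without donor 1, 0.114 and 0.106 without donor 2), while the estimates lay between 0.90 and 1.10. Most calls over all probe sets were lost too. At 21% and 2% oxygen 95 and 116 were left without donor 1, and 29 and 49 without donor 2, in place of 736 and 817. With the donor block 424 and 484 were left without donor 1, and 181 and 242 without donor 2, in place of 1701 and 1869.

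CCN2, formerly connective tissue growth factor, is a mediator of matrix production downstream of TGF-β. Its signal without TGF-β3 was 12.73, 12.92 and 12.85 at 21% oxygen and 12.70, 12.76 and 12.92 at 2%. With TGF-β3 it was 13.14, 13.30 and 13.16 at 21%, and 13.06, 13.22 and 13.25 at 2%. Again the treated and untreated arrays were fully apart, by a small distance.

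The change of CCN2 was 0.37 ± 0.09 at 21% oxygen (1.29-fold) and 0.39 ± 0.09 at 2% (1.31-fold). In the fit without the donor these narrowly missed the threshold (limma adjusted p = 0.0696 and 0.0514). With the donor as a block CCN2 rose (adjusted p = 0.0233 and 0.0165, where the alternatives together spanned 0.0233 to 0.407 and 0.0165 to 0.379). It was also called without a donor term when dim probe sets were removed (adjusted p = 0.0308 and 0.024), with an intensity trend (0.0269 and 0.019) and with 1 probe set per symbol (0.0448 and 0.0329). The donors differed little from each other, with changes of 0.41, 0.38 and 0.31 at 21% and of 0.36, 0.46 and 0.34 at 2%. The CCN2 probe set was among the brightest, between the 99.4 and 99.8 percentile of its array, where the brightest probe set reached 14.20 to 14.27. Whether the upper end of the signal scale limited the change of CCN2 was not tested.

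CCN4, a secreted protein of osteoblast precursors and fibroblasts, was the member with the largest change in this comparison at 21% oxygen. Its signal there was 8.81, 8.70 and 8.43 without and 9.78, 9.94 and 9.94 with TGF-β3. At 2% oxygen it was 9.68, 9.37 and 9.13 without and 10.32, 10.45 and 10.04 with it. The order of the donors at 2% without TGF-β3 was the same as in untreated cells at 21%, while with TGF-β3 at 21% donors 2 and 3 had the same signal.

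The rise of CCN4 was 1.24 ± 0.15 at 21% oxygen (2.36-fold, limma adjusted p = 0.00187) and 0.88 ± 0.15 at 2% (1.83-fold, adjusted p = 0.0116). It was 0.97, 1.24 and 1.51 in donors 1, 2 and 3 at 21%, and 0.64, 1.08 and 0.91 at 2%. The call at 21% was lost without donor 2 (adjusted p = 0.119) but was kept with the donor as a block whichever donor was left out. At 2% it was lost without donor 1 (adjusted p = 0.0876), donor 2 (0.263, and 0.119 with the donor block) or the treated array of donor 1 (0.0504). As given for CCN1, most calls over all probe sets were lost too when donor 1 or donor 2 was left out. Without that treated array 402 were left at 2%, in place of 817.

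**Figure D2:**
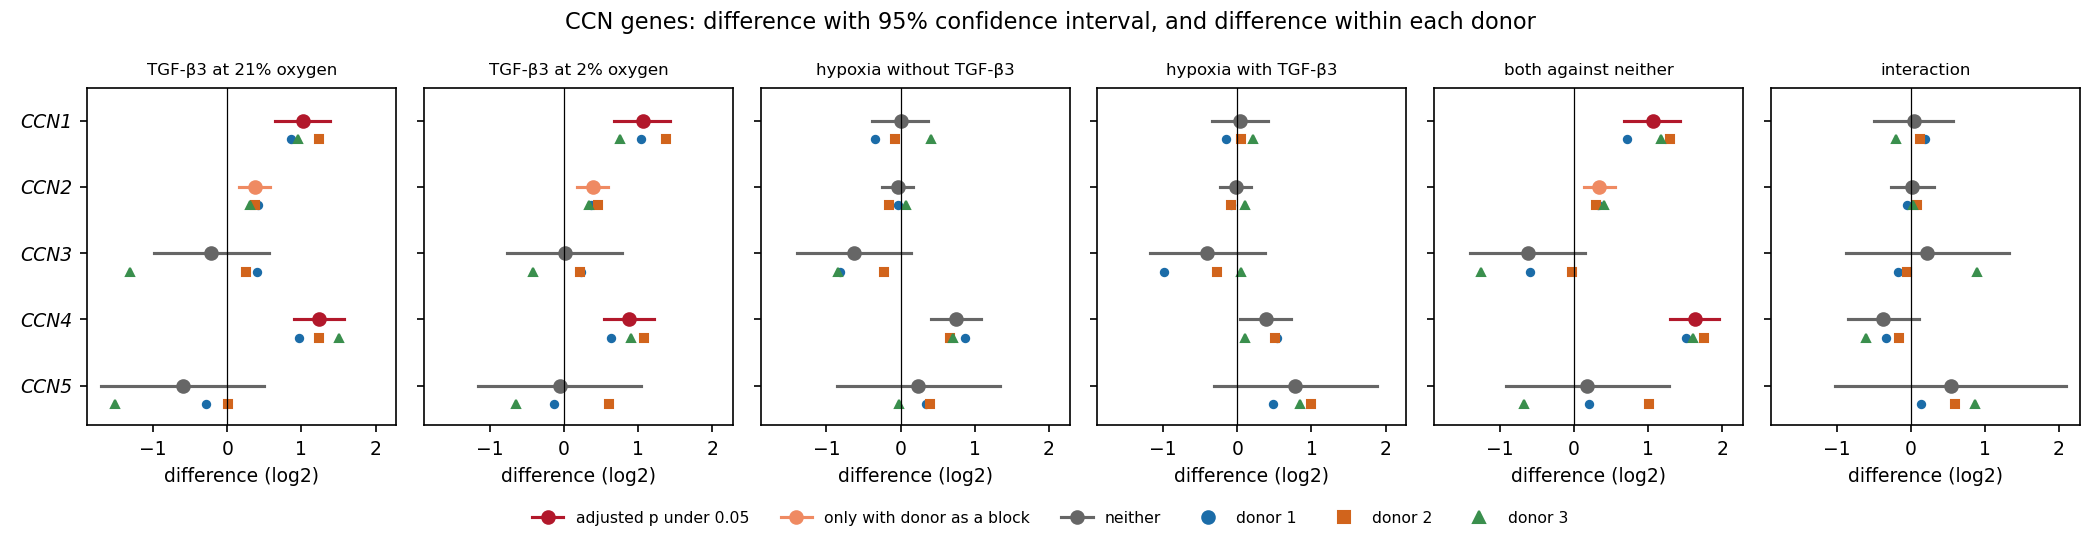
Difference between conditions (log2, horizontal axis) for each measured CCN gene in the 6 comparisons, as the limma estimate (large point) with its 95% confidence interval from the fit without the donor, and the difference within each donor (small symbols below it). Red marks an adjusted p under 0.05, orange one reached only with the donor as a block, and grey neither; CCN1 and CCN4 are red in the TGF-β3 panels and in that of both against neither, and CCN2 is orange there.

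CCN3, which counteracts CCN2 in cultured rat mesangial cells of the kidney, split by donor under TGF-β3. At 21% oxygen its signal was 9.89, 9.44 and 9.89 without and 10.29, 9.70 and 8.58 with TGF-β3, so that the changes were 0.40 and 0.25 in donors 1 and 2 and -1.31 in donor 3. At 2% it was 9.07, 9.21 and 9.05 without and 9.30, 9.42 and 8.63 with it, with changes of 0.23, 0.21 and -0.42. The mean change was -0.22 ± 0.35 at 21% (limma adjusted p = 0.847, 95% confidence interval -0.99 to 0.56) and 0.01 ± 0.35 at 2% (adjusted p = 0.997, -0.77 to 0.78). Both intervals include changes in either direction, so equal levels are not shown either. Without donor 3 the estimate at 21% was 0.33 (adjusted p = 0.596).

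CCN5, the member without the cystine knot and an inhibitor of smooth muscle cell growth, was the most variable of the 5 between donors. Its signal at 21% oxygen was 8.42, 9.05 and 8.79 without and 8.14, 9.06 and 7.27 with TGF-β3. At 2% it was 8.76, 9.45 and 8.77 without and 8.62, 10.05 and 8.12 with it. Donor 2 was highest in all 4 conditions, and the donor means over the conditions spanned 1.16, against 0.60 for CCN3 and at most 0.26 for the other members. The change was -0.60 ± 0.50 at 21% (limma adjusted p = 0.659, 95% confidence interval -1.70 to 0.50), made up of -0.28, 0.01 and -1.52, and -0.06 ± 0.50 at 2% (adjusted p = 0.979, -1.16 to 1.04), made up of -0.14, 0.61 and -0.65. Removing donor 3 moved the estimate at 21% to -0.14, and removing only the treated donor 2 array moved it to -1.05. The latter fit had no donor term and compared unequal sets of donors, so it also holds differences between donor levels. Donor 3 had the lowest change of CCN3 and of CCN5 at both tensions.

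CCN4 was higher at 2% than at 21% oxygen in every donor, but neither it nor any other member was called. Hypoxia gave a call for 0 of 5 members in limma without TGF-β3, against 0.00374% of all probe sets (1 probe set), and 0 of 5 with TGF-β3, against 0%. With the donor block these shares were 0.0112% and 0.0224%, and again 0 of 5 members were called. An unadjusted limma p under 0.05 was found for CCN4 alone in each case (1 of 5), beside 5.4% and 4.3% of all probe sets. With the block it was found for 1 and 2 members, and the further one was CCN5 with TGF-β3 (limma adjusted p = 0.665 with the block). The groups did not overlap for CCN3 and CCN4 without TGF-β3 (2 of 5, against 11% of all probe sets) and for CCN4 with it (1 of 5, against 8.6%). Of the cell type lists, the erythroid one stood apart between the tensions. Its mean signal was 5.44 to 5.50 and 5.24 to 5.43 without TGF-β3 and 5.58 to 5.64 and 5.42 to 5.45 with it, all below the array medians. The chondrocyte list stood apart with TGF-β3, at 9.00 to 9.07 and 9.11 to 9.20. With TGF-β3 the ranges of the stromal list (9.80 to 9.87 and 9.87 to 9.93) and of the osteoclast list (7.17 to 7.19 and 7.04 to 7.17) met at a rounded value. The ranges of the adipocyte list overlapped between the tensions, but with the donor block its member LPL was called higher at 2% oxygen. The difference was 1.5 ± 0.26 without TGF-β3 and 1.34 ± 0.26 with it (limma adjusted p = 0.00741 and 0.0349 with the block). In the fit without the donor LPL was not called (limma adjusted p = 0.29 and 0.305). No other member of the cell type lists was called between the tensions in either fit. The part of these lists in the differences was not tested.

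CCN4 was higher at 2% than at 21% oxygen by 0.75 ± 0.15 without TGF-β3 (1.68-fold, unadjusted p = 0.000486, limma adjusted p = 0.39, with alternatives from 0.161 to 1). Ranked by p, it stood at 33 of 26773 probe sets. The differences were 0.87, 0.67 and 0.70 in donors 1, 2 and 3. With TGF-β3 present the difference was 0.38 ± 0.15 (1.30-fold, unadjusted p = 0.0301, adjusted p = 1) and was made up of 0.54, 0.51 and 0.10. The condition means of CCN4 rose from untreated cells (8.64 ± 0.20, SD) through 2% oxygen alone (9.39 ± 0.28) and TGF-β3 alone (9.89 ± 0.09) to both (10.27 ± 0.21). No 2 neighbouring conditions overlapped, but the upper 2 gaps were narrow. The nearest arrays were 9.68 at 2% oxygen alone and 9.78 with TGF-β3 alone, and 9.94 with TGF-β3 alone and 10.04 with both. The share of all probe sets with 4 conditions apart in this way was not computed. The step from 2% oxygen alone to TGF-β3 alone was 0.49, a distance whose p-value was not computed.

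CCN3 was lower at 2% oxygen without TGF-β3 by -0.63 ± 0.35 (1.55-fold, limma adjusted p = 0.969, 95% confidence interval -1.40 to 0.14), with differences of -0.82, -0.23 and -0.84. With TGF-β3 it differed by -0.41 ± 0.35 (adjusted p = 1), from -0.99 in donor 1 through -0.28 in donor 2 to 0.05 in donor 3. This estimate was -0.02 without the donor 1 array and -0.88 without the donor 3 array of TGF-β3 at 21% oxygen. CCN5 differed by 0.24 ± 0.50 without TGF-β3 (0.34, 0.40 and -0.02 in the donors) and by 0.78 ± 0.50 with it (1.71-fold, adjusted p = 1, 95% confidence interval -0.32 to 1.88), where all 3 donors were higher at 2%, by 0.48, 1.00 and 0.85. With the donor block the interval with TGF-β3 was 0.13 to 1.43, and CCN5 was not called there either (limma adjusted p = 0.665). The estimate with TGF-β3 was 0.22 without the 2% array of donor 2 and 1.23 without the 21% array of that donor. Fits without a single array, here and for CCN3, had no donor term and compared unequal sets of donors. Their estimates therefore also move with the levels of the donors. Neither gene was called. The 4 conditions ran from 2% oxygen alone (9.11 ± 0.09, SD) over both (9.12 ± 0.42) and TGF-β3 alone (9.52 ± 0.87) to untreated cells (9.74 ± 0.26) for CCN3. For CCN5 they ran from TGF-β3 alone (8.15 ± 0.89) over untreated cells (8.75 ± 0.32) and both (8.93 ± 1.00) to 2% oxygen alone (8.99 ± 0.39). Neighbouring conditions overlapped throughout in these 2 genes.

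CCN1 and CCN2 differed little between the oxygen tensions. For CCN1 the difference was 0.00 ± 0.17 without TGF-β3 (95% confidence interval -0.38 to 0.37) and 0.04 ± 0.17 with it (-0.34 to 0.41). For CCN2 it was -0.04 ± 0.09 (-0.25 to 0.16) and -0.02 ± 0.09 (-0.23 to 0.19). In CCN1 the donors ran from -0.34 in donor 1 to 0.41 in donor 3 without TGF-β3. For both genes these intervals lay below the estimates of the change with TGF-β3. Those estimates have errors of their own, and for CCN2 their intervals began at 0.16 (21% oxygen) and 0.18 (2%). The difference between the effects of hypoxia and of TGF-β3 was not tested. The order of the conditions for CCN1 and CCN2 was a pair without TGF-β3 and a pair with it, whose members overlapped within each pair.

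Both factors together, set against neither, gave 2 called members of 5, CCN1 and CCN4, both higher, against 3.74% of all probe sets (1.89% higher), and 3 with the donor block, against 7.64%. The arrays did not overlap for 4 of 5 members, against 22% of all probe sets. CCN4 was higher by 1.63 ± 0.15 (3.08-fold, limma adjusted p = 0.000288), with 1.51, 1.75 and 1.61 in the 3 donors, and it kept this call under every alternative run, with adjusted p-values up to 0.0496. CCN1 was higher by 1.06 ± 0.17 (2.08-fold, adjusted p = 0.00667), a call that was lost without donor 1 (0.0735), donor 2 (0.123, and 0.0938 with the donor block) or donor 3 (0.0529). Over all probe sets 169, 101 and 485 were called without donors 1, 2 and 3, in place of 1002. CCN2 differed by 0.34 ± 0.09 (adjusted p = 0.0741, and 0.0264 once donors were blocked, with alternatives from 0.0264 to 0.354). CCN3 differed by -0.62 ± 0.35 (adjusted p = 0.451), lower in all 3 donors by amounts from -0.03 to -1.26, and CCN5 by 0.18 ± 0.50 (adjusted p = 0.929). This comparison shares its untreated arrays with that of TGF-β3 at 21% and with that of hypoxia without TGF-β3.

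Whether the response to TGF-β3 depended on oxygen was tested as the interaction, the change at 2% minus the change at 21%. In limma it called 0 of 5 members and 0% of all probe sets, also with the donor block, and at an unadjusted p under 0.05 it held 0 of 5 members beside 2.94% of all probe sets. For CCN4 the interaction was -0.37 ± 0.22 (adjusted p = 1, 95% confidence interval -0.85 to 0.11), and it was below 0 in each donor, at -0.33, -0.16 and -0.60. For CCN5 it was 0.54 ± 0.71 (-1.02 to 2.09) and above 0 in each donor, at 0.14, 0.60 and 0.87. It was 0.04 ± 0.24 for CCN1, 0.02 ± 0.13 for CCN2 and 0.22 ± 0.50 for CCN3. An interaction of 1 sign in all 3 donors was thus found for 2 of 5 members, against 25.8% of all probe sets.

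The regulators through which CCN1 and CCN2 are known to be controlled were themselves partly changed by TGF-β3. Of 21 measured genes of the Hippo pathway and its TEAD factors, 1 rose and 2 fell at 21% oxygen (3 rose with the donor block), and 4 rose and 1 fell at 2%, with a median change of 0.12 at both. TEAD2, a DNA-binding partner of YAP, rose by 0.94 ± 0.15 at 21% (limma adjusted p = 0.00687) and by 0.70 ± 0.15 at 2% (adjusted p = 0.0272). AMOT, a membrane-associated protein that binds YAP, fell by 0.81 ± 0.11 and by 0.84 ± 0.11. WWTR1, the gene of TAZ, fell by 0.49 ± 0.11 at 21%, and WWC1 (0.68 ± 0.12) and TEAD3 (0.51 ± 0.11) rose at 2%. WWTR1 at 2% (-0.42 ± 0.11) and TEAD3 at 21% (0.38 ± 0.11) were called only with the donor block. WWC1 at 21% (0.45 ± 0.12) was called in neither fit.

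YAP and TEAD targets outside the family did not share a direction. Of 22 measured, 2 rose and 3 fell at each tension (7 rose and 4 fell with the donor block), with a median of 0.21 at 21% and 0.17 at 2%. The kinase gene NUAK2 rose by 0.79 ± 0.14 and 0.65 ± 0.14, and the activin subunit gene INHBA by 0.80 ± 0.18 at 21%. TGFB2, a TGF-β ligand, rose by 1.24 ± 0.13 at 2%. INHBA at 2% (0.75 ± 0.18) and TGFB2 at 21% (0.56 ± 0.13) were called only with the donor block. IGFBP3, an insulin-like growth factor carrier, fell by 1.58 ± 0.31 and 1.35 ± 0.31, and RBMS3 fell by 1.23 ± 0.14 and 0.88 ± 0.14. ANKRD1, often measured beside CCN1 and CCN2 as a YAP target, changed by 2.10 ± 0.55 and 2.13 ± 0.55 (limma adjusted p = 0.0757 and 0.0651, and 0.00647 and 0.00541 with the donor block), and it was called for both factors against neither (2.83 ± 0.55, adjusted p = 0.0166).

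The next list held serum response factor, its coactivators and their targets. Of 15 measured, 1 rose at 21% oxygen and 3 rose at 2%, none fell in limma, and with the donor block 8 and 7 rose, while the medians were 0.33 and 0.41. At 21% it was TAGLN, an actin-binding protein, that rose (0.55 ± 0.12), and at 2% FOS (1.20 ± 0.24), TAGLN (0.62 ± 0.12) and SRF itself (0.59 ± 0.12). FOS (1.02 ± 0.24) and SRF (0.49 ± 0.12) were called at 21% only with the donor block. SMAD feedback genes and TGF-β targets had the highest medians of the 7 lists, 0.70 and 0.73, with 5 of 11 up at 21% and 3 of 11 up at 2% (6 up with the block at each, and 1 down at 2%). PMEPA1, a SMAD inhibitor, rose by 1.93 ± 0.13 and 1.87 ± 0.13, the corepressor gene SKIL by 1.24 ± 0.13 and 1.22 ± 0.13, IL11 by 1.21 ± 0.20 and 1.22 ± 0.20, and LDLRAD4 by 1.09 ± 0.25 at 21%. The medians of the CCN members, 0.37 and 0.39, lay between those of these 2 lists at 21% oxygen and below both at 2%, just below that of the SRF list. The hypoxia check genes described below had medians of 0.40 and 0.43 with TGF-β3.

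**Figure D3:**
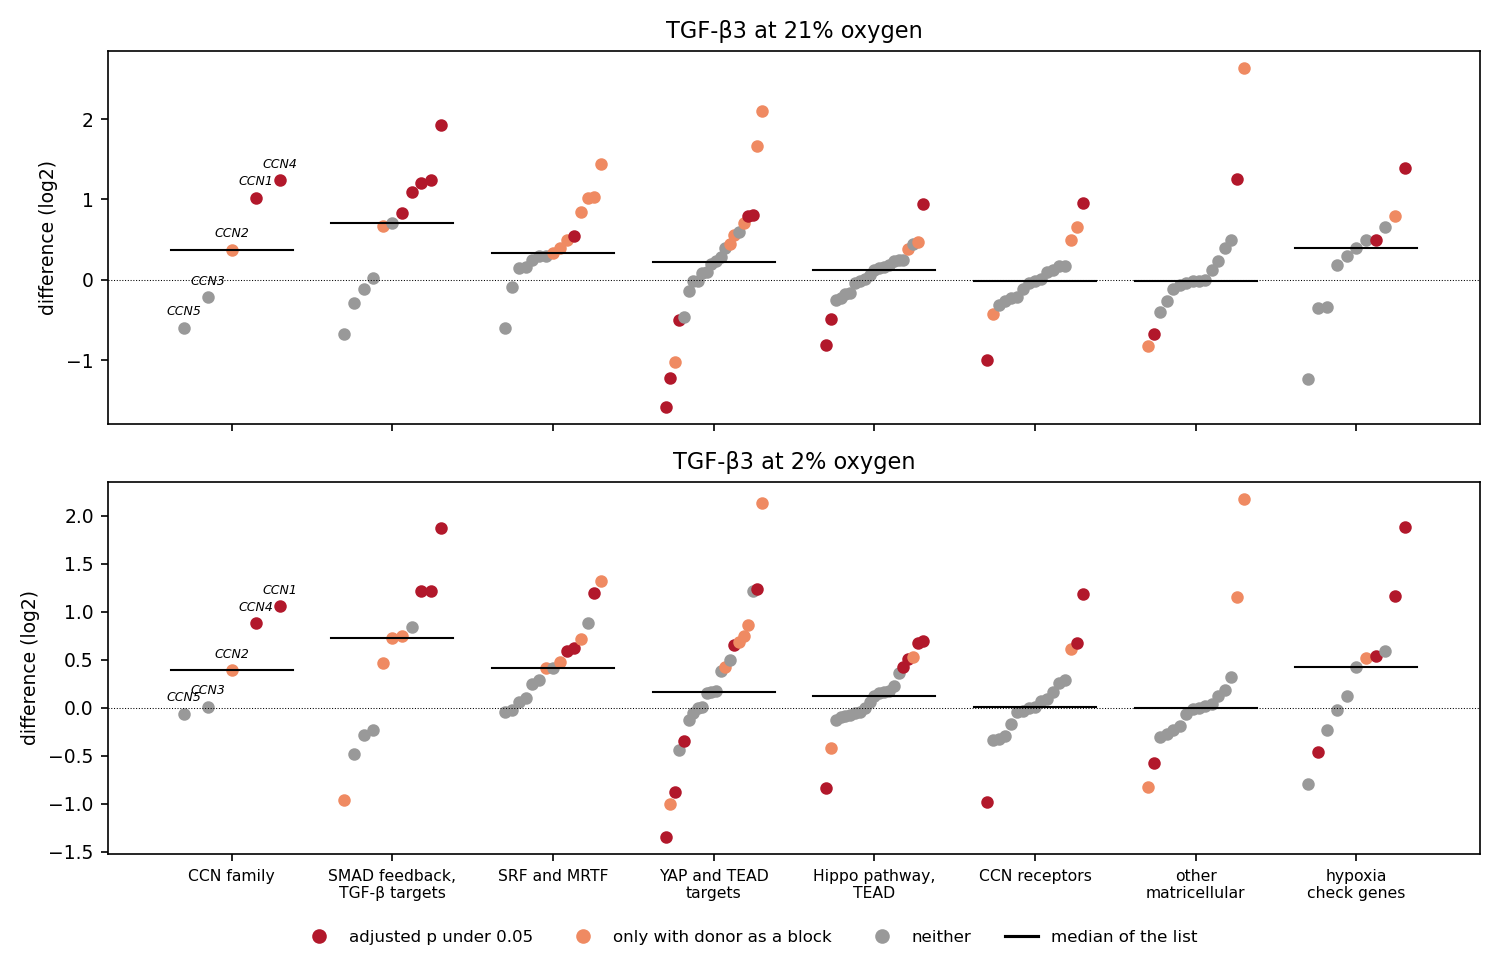
Difference with TGF-β3 (log2, vertical axis) at 21% oxygen (top) and 2% oxygen (bottom) for each measured gene of the CCN family and of 7 related lists (horizontal axis), sorted within a list, with the median as a line. Red marks an adjusted p under 0.05, orange one reached only with the donor as a block, and grey neither. The medians of the CCN family, of SMAD feedback genes, of SRF genes and of hypoxia check genes lie above 0. Those of YAP targets and of the Hippo list lie above 0 by less, and those of CCN receptors and of other matricellular proteins lie near 0.

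A few receptors of CCN proteins changed, and the integrin subunit genes ITGB3 and ITGB5 went opposite ways. Of 17 measured, 1 rose and 1 fell at 21% oxygen (3 and 2 with the donor block), and 2 rose and 1 fell at 2%, with medians of -0.02 and 0.01. ITGB3, the β3 subunit of a receptor for CCN1 and CCN2, rose by 0.95 ± 0.15 at 21% (limma adjusted p = 0.00836) and by 1.19 ± 0.15 at 2% (adjusted p = 0.00216). ITGB5, the β5 subunit, fell by 1.00 ± 0.19 (adjusted p = 0.0196) and 0.98 ± 0.19 (adjusted p = 0.0205), and ITGA5, whose product binds fibronectin, rose by 0.67 ± 0.16 at 2%. ITGA5 at 21% (0.66 ± 0.16) was called only with the donor block. Other matricellular proteins did not follow CCN1 and CCN4 as a list. Of 16, 1 rose and 1 fell at 21%, and 0 rose and 1 fell at 2% (2 and 2 with the block at each, and 4 with an unadjusted p under 0.05 at 2%), with medians of -0.01 and 0.00. The elastic fibre protein gene FBLN5 rose by 1.26 ± 0.28 at 21%, and TNC, the gene of tenascin-C, fell by 0.67 ± 0.11 and 0.58 ± 0.11.

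In the hypoxia comparisons limma called 0 members of these 6 lists and 0 of 11 hypoxia check genes, with or without the donor block. Of the check genes, 10 had an unadjusted p under 0.05 without TGF-β3 and 8 with it, and their median differences were 0.65 and 0.64. SLC2A1, a glucose transporter, differed by 0.87 ± 0.16 without TGF-β3 (unadjusted p = 0.000242) and PDK1, which restrains pyruvate oxidation, by 0.65 ± 0.17, and with TGF-β3 the carbonic anhydrase gene CA9 differed by 2.60 ± 0.45 and PDK1 by 0.77 ± 0.17. With TGF-β3, the check genes had 2 rises and no fall at 21% (SLC2A1 at 1.39 ± 0.16 and VEGFA, the vascular growth factor, at 0.50 ± 0.12), and 3 rises and 1 fall at 2% (CA9, SLC2A1 and VEGFA up, PFKFB4 down by 0.46 ± 0.10). The unadjusted counts of the other lists without and with TGF-β3 were 3 and 2 of 21 for the Hippo list, 2 and 0 of 22 for YAP targets, 1 and 1 of 15 for SRF genes, 2 and 4 of 17 for receptors, 0 and 0 of 11 for SMAD feedback genes, and 0 and 0 of 16 for matricellular proteins. For both factors against neither, limma called 2 up and 1 down in the Hippo list, 4 up and 3 down among YAP targets, 4 up among SRF genes, 1 up and 1 down among receptors, 5 up among SMAD feedback genes, 2 up and 2 down among matricellular proteins, and 6 up among the check genes. No list member was called for the interaction, where the unadjusted counts were 1 for YAP targets, 1 for the check genes and 0 for the other 5 lists.

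The genes whose pattern was most like each member were found by Pearson's r over the 12 arrays, after the mean of each donor was taken off, among 2266 genes whose condition means spanned at least 0.5. The arrays share donors and conditions, so r is a description here. For CCN1 they were SGTB, CDH2, B3GALNT1 and GTPBP8, each with r = 0.99. CDH2, the gene of N-cadherin, had condition means of 10.50 and 10.43 without TGF-β3, at 21% and 2% oxygen, and of 11.72 and 11.85 with it. Its r on the signals as deposited was 0.63, the lowest of these 4. For CCN2 they were TAGLN, SYNC and PLEK2 with r = 0.99, and ZYX with r = 0.98. TAGLN and ZYX, the gene of zyxin, encode proteins of the actin cytoskeleton.

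For CCN4 the nearest genes were SLC2A1 and WWP2, each with r = 0.99, and TES and XPR1, each with r = 0.98. SLC2A1, which was picked for this likeness, had condition means of 9.30 in untreated cells, 10.18 at 2% oxygen alone, 10.70 with TGF-β3 alone and 11.34 with both. Its arrays at 2% oxygen alone (10.43, 10.18 and 9.92 in donors 1, 2 and 3) and with TGF-β3 alone (10.36, 10.81 and 10.92) overlapped. Those of CCN4 did not, though the nearest were 9.68 and 9.78. The ubiquitin ligase gene WWP2 had means of 10.31, 10.63, 10.84 and 11.02 in the same order. For CCN3 the nearest were VDR, the vitamin D receptor gene, SELENOV and FHL5, each with r = 0.90, and the glypican gene GPC4 with r = 0.88. For CCN5 they were AS3MT (r = 0.94), CPXM1 (r = 0.91), HTATIP2 (r = 0.87) and GIPC3 (r = 0.83). The r of the nearest genes was therefore higher for CCN1, CCN2 and CCN4 than for CCN3 and CCN5. The candidates were kept for their spread between conditions, so this order is not independent of which members changed with the conditions.

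**Figure D4:**
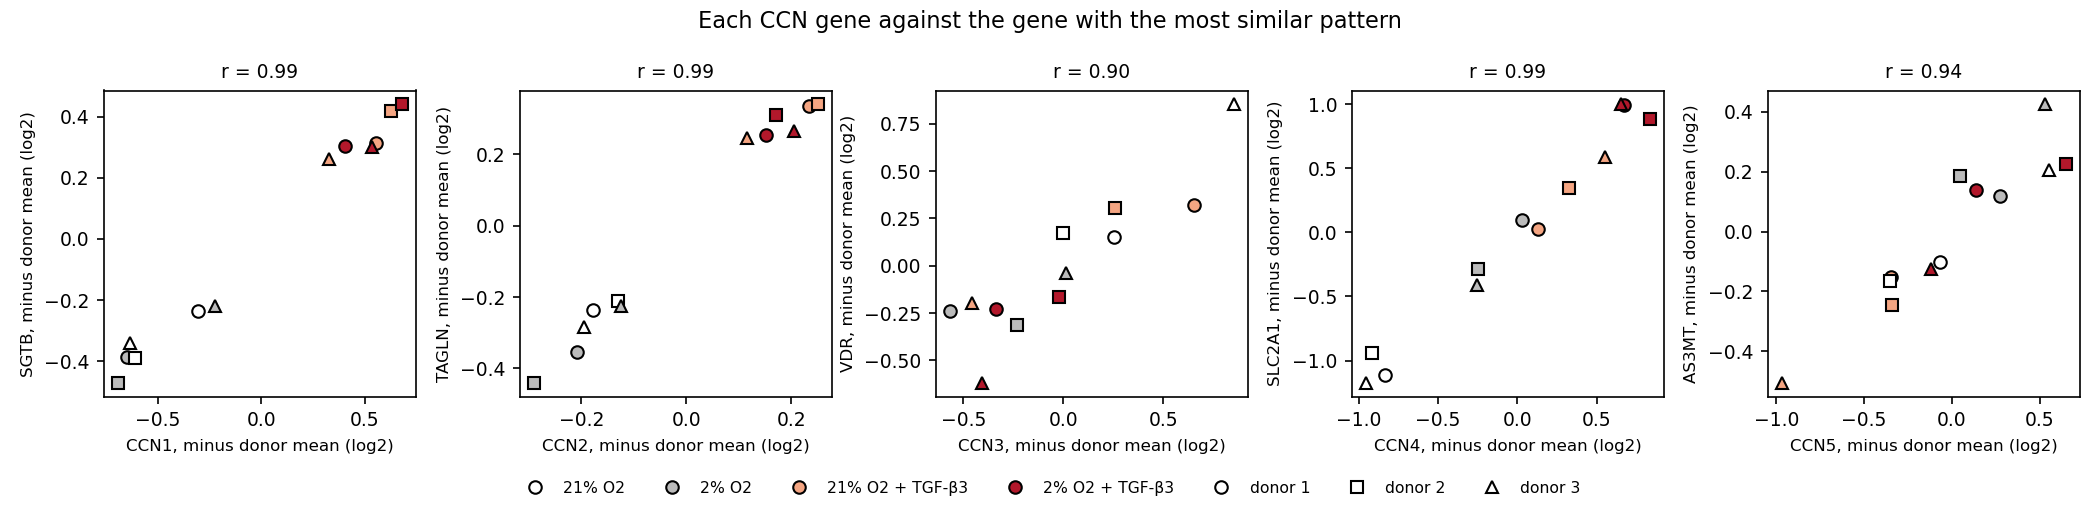
Signal of each measured CCN gene (horizontal axis) against that of the gene with the highest Pearson's r (vertical axis) in the 12 arrays, both as log2 values minus the donor's mean, with the fill giving the condition and the shape the donor. For CCN1 and CCN2 the arrays form a group without and a group with TGF-β3, for CCN4 and SLC2A1 they run from untreated cells at the low end to both factors at the high end, and for CCN3 and CCN5 they form no such groups.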

How the data were processed

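RNA of 12 samples was measured on Affymetrix arrays with bovine probes. The deposited log2 signals had been normalised by RMA, per the labels, with Partek 6.6 named in the submitters' processing notes. The log base was taken from the range of the values, and the probe library and any filter used upstream are not given here. The values were used as deposited, with donor and condition from the titles. Names came from the platform annotation: 18550 probe sets had 1 symbol, 595 several and 7628 are unnamed here. A gene with several probe sets was read from the probe set of highest mean signal.

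The test was limma 3.58.1 (lmFit, eBayes, in R 4.3.3), fitted on all 12 arrays with condition as the only term (8 residual and 3.14 prior degrees of freedom). The code was checked on simulated data with independent noise in each array. That noise held no donor effect, so the check does not cover the lack of a donor term. Donor numbers mark cells of 1 animal: deviations from the condition means correlated at 0.177 to 0.602 over 18 pairs of arrays of 1 donor, and at -0.44 to 0.1 over 36 pairs of different donors, and for each of the 12 arrays the closest match came from the same donor. Hence a second model had donor as a block (6 residual degrees of freedom). Of each of 7 gene lists, up to 4 called members with the largest change are named per comparison, or the 2 with the smallest p where none was called and the list is described singly. ANKRD1 in the TGF-β3 comparisons was picked after its values were seen. The CCN members, the lists and the tests were chosen with earlier results of these data known. No sequence was used here.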

Additional observations from a re-analysis of the deposited data

How the results depend on the processing

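Alternatives were equal array medians, quantile normalisation, a filter on dim probe sets, a trend with intensity, a fixed or random donor block, a fit to the compared groups alone, 1 probe set for each symbol, a required change of 2-fold, and the removal of single arrays or single donors. Removing each donor with the donor as a block was added after the data were seen. Averaging a gene's probe sets was not run, since each CCN gene had 1. Of the values of single genes, 709 kept their direction and their side of the threshold, 16 passed it only in the alternative, all of CCN2, 20 lost it, all of CCN1 or CCN4, and 60 changed sign, none of which had been called.

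The number of members called at 2% oxygen with TGF-β3 was 1 in place of 2 with the compared groups alone (CCN4 at adjusted p = 0.0672) and with the required 2-fold change. These settings called 318 and 231 of all probe sets, in place of 817. Over the samples left out, the number of members called ranged from 0 to 2 for TGF-β3 at 21%, from 0 to 3 at 2% (3 without the untreated 2% array of donor 3) and from 1 to 2 for both against neither. Calls over all probe sets fell as well when a donor was left out. Without donor 2 they numbered 29, 49 and 101 in these comparisons, and without donor 1 they numbered 95, 116 and 169. With all arrays they numbered 736, 817 and 1002. The donor block called 3 members in these comparisons, adding CCN2, and changed no other call of a member. Quantile normalisation turned CCN3 with TGF-β3 at 2% to -0.01, CCN1 in hypoxia without TGF-β3 to 0.03 and the interaction of CCN2 to -0.02.

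Over the samples left out, with TGF-β3 CCN3 ran from -0.60 to 0.33 at 21% and from -0.15 to 0.25 at 2%, and CCN5 from -1.05 to -0.14 and from -0.62 to 0.34. In hypoxia without TGF-β3 CCN1 ran from -0.21 to 0.17 and CCN2 from -0.10 to 0.02, and with it from -0.05 to 0.13 and from -0.08 to 0.04. In hypoxia with TGF-β3 CCN3 ran from -0.88 to -0.02 and CCN5 from 0.22 to 1.23, and without it CCN5 from 0.01 to 0.39. For both against neither CCN3 ran from -0.92 to -0.31 and CCN5 from -0.38 to 0.60. The interaction ran from -0.12 to 0.22 for CCN1, -0.03 to 0.08 for CCN2, -0.25 to 0.61 for CCN3, -0.50 to -0.22 for CCN4 and -0.02 to 0.99 for CCN5. Where a single array was left out, the fit had no donor term and compared unequal sets of donors, so these ranges also hold differences between donor levels. The part of these levels, or of any other cause, was not tested. Signal over background could not be judged, since the values hold no detection call.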

Other observations

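Among themselves, with donor means taken off, CCN1 and CCN2 followed each other most closely over the 12 arrays (r = 0.97, and 0.87 on the values as deposited). CCN4 followed CCN1 at 0.81 and CCN2 at 0.76. CCN3 stood at -0.51 with CCN4 and at 0.00 with CCN2, and CCN5 stood between -0.34 and 0.18 with the others. The arrays share donors and conditions, so these are descriptions of 12 arrays and carry no test.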
